A study of Homo sapiens with 12 samples.

Results

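NGI-1 is a small molecule that inhibits the oligosaccharyltransferase complex (OST), the enzyme of the endoplasmic reticulum (ER) membrane that transfers a preassembled sugar chain from a lipid carrier to asparagine residues of nascent proteins. The late change within cells already under treatment was examined here: 3 libraries after 5 days of NGI-1 were compared with 3 libraries after 2 days, out of 12 libraries in the series. The features compared were the 11939, of 59276 in the table, that reached a TPM value (transcripts per 1000000) of 1 in at least 3 libraries. TPM is a length-corrected share of all transcripts of a library, so every library adds up to the same total and a gain in some genes has to be matched by a loss in others.

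Total RNA was sequenced from a human multiple myeloma line, a cancer of antibody-secreting plasma cells, that the labels call MM1S. Both groups received NGI-1 and no other agent is labelled, and they differ by label only in the time point, day 2 or day 5. The series has no library without NGI-1 at either time point. Time under NGI-1 therefore cannot be told apart from time in culture. The other 6 libraries are 3 of day 3 and 3 of day 0; the labels name NGI-1 for day 0 as well, whereas the study treats those cells as untreated. Nothing in the labels says whether the 3 libraries of a group came from separate cultures, so p-values measure only the spread between these libraries, which may be technical.

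All 9 plasma cell markers checked were present above 1 TPM in every library, among them SDC1, which encodes syndecan-1 (CD138), XBP1 and IRF4. Summed over 4 markers each, monocyte, fibroblast and B cell genes stayed under 0.58 TPM in all 12 libraries, with COL1A2, COL3A1, CD22 and FCGR3A at 0 throughout, and erythroid genes lay between 0 and 1.39 TPM. The 4 T cell markers summed to 5.06 to 7.17 TPM at day 2 and to 3.51 to 4.75 TPM at day 5, nearly all of it CD3E, while CD3D was at 0. The immunoglobulin genes did not follow the label. MM1S is known as a lambda light chain line with a translocation that drives the transcription factor MAF, but IGKC, the kappa constant region, read 7071 to 27555 TPM over the 12 libraries, against 507 to 1058 TPM for the lambda gene IGLC1, at most 3.71 TPM for IGLC2 and 0.793 TPM for IGLC3. MAF read 2.27 to 9.31 TPM and FGFR3, a receptor tyrosine kinase gene driven by another myeloma translocation, 147 to 349.7 TPM. The cells are therefore called the cells labelled MM1S, and since all 12 libraries show the pattern it does not separate day 2 from day 5.

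Multiple myeloma cells make large amounts of immunoglobulin and lean on the ER machinery that folds, glycosylates and inspects secreted proteins. Dividing cells also switch on a block of genes for DNA synthesis and mitosis, many of them through the promoter elements known as the CCAAT box, bound by NF-Y, and the cell cycle genes homology region (CHR), bound by the DREAM and MYB-MuvB complexes. Cells that leave the cycle lose these transcripts together.

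The promoters of the 3 mitosis genes with the largest falls among those with a promoter sequence at hand are shown because this list moved most. Each runs from 250 bases before to 50 bases after the start of the gene, 5′ to 3′ on the gene's strand, from RefSeq on GRCh38.p14, and the capitals mark CCAAT and TTTGAA on either strand.
NUSAP1 (chr15:41332631-41332930, plus strand): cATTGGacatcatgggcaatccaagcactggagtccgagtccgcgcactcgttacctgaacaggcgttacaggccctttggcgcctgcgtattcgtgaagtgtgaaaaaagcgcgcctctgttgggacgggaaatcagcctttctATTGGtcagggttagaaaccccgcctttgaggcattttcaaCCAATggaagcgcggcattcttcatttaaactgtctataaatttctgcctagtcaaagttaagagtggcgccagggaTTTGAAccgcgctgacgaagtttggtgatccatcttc
CDC20 (chr1:43358731-43359030, plus strand): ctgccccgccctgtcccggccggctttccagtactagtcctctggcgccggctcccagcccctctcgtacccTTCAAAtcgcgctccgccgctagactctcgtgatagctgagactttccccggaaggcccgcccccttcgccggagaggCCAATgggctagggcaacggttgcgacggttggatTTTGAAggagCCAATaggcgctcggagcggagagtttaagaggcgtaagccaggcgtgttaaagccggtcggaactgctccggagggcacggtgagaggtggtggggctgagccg
PTTG1 (chr5:160421605-160421904, plus strand): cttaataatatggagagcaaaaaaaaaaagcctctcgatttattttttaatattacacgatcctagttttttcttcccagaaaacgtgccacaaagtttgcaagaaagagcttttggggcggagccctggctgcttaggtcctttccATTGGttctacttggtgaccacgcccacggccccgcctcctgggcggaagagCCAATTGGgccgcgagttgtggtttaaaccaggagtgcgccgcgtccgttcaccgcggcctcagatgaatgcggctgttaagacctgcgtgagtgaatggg
The promoter of NUSAP1 holds 3 CCAAT matches and 1 TTTGAA match, that of CDC20 2 of each, and that of PTTG1 3 CCAAT matches, a pair of which overlap on opposite strands, and 0 of TTTGAA. Of the 52 mitosis genes with a promoter in the table, 73.1% held CCAAT and 69.2% held TTTGAA. Over the 8941 tested genes with a promoter the shares were 37.9% and 9.27%, and over all 27305 promoters 35.7% and 15.4%. The list holds many genes known for these elements. In the 1694 promoters of features called lower on both scales described below, the shares were 42.9% and 12.4%. In the 312 of features called higher on both they were 40.1% and 14.7%.

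On the scale as deposited, 8328 of the 11939 features (69.8%) were called lower at day 5 than at day 2 and 519 (4.35%) higher, by limma's moderated test with a Benjamini-Hochberg adjusted p under 0.05 and a log2 change over 0.5 in size. The median log2 change of all tested features was -0.83. The 3 day 5 libraries lay wholly below the 3 day 2 libraries in 76.8% of features and wholly above them in 6.28%. These counts rest on the fixed TPM total. When each library was instead divided by 1 factor so that its median abundant feature matched the others, here called rescaled, 2159 features (18.1%) were lower and 2265 (19.0%) higher, and the median log2 change became -0.073. The factors were 1.27, 1.30 and 1.26 for the day 2 libraries and 0.573, 0.620 and 0.738 for the day 5 libraries. No feature was called lower on one scale and higher on the other: all 2159 rescaled falls were among the 8328, all 519 rises were among the 2265, 6169 falls were not called after rescaling and 1746 rises were called only after it. Every day 5 factor was below every day 2 factor, so rescaling moved the changes upward. The nesting follows almost wholly from this and is not separate support. For a rise the rescaled call adds little to the deposited one, and for a fall it is the stricter. Which scale is nearer to the amount of RNA per cell was not measured, and in bulk RNA fewer cells of a kind and less RNA per cell cannot be told apart. Both values are therefore given, with the deposited scale first, and a gene is said to have fallen or risen on both scales where both called it. The counts of every gene list below have to be read against the shares of all features. These are 69.8% lower and 4.35% higher as deposited, and 18.1% lower and 19.0% higher after rescaling.

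**Figure D1:**
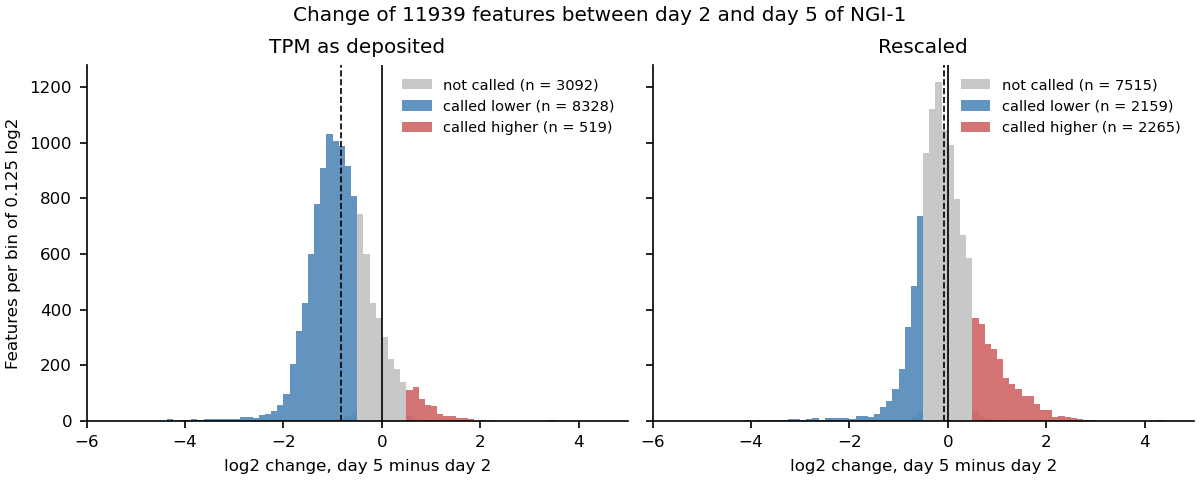
Number of features in bins of 0.125 log2 units by their log2 change from day 2 to day 5, on the scale as deposited (left) and rescaled (right); blue marks features called lower, red those called higher, grey those not called, the solid line 0 and the dashed line the median. The bulk of features moves from a median of -0.83 to one of -0.073 while the tail of large falls stays on the left in both.

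The share of TPM in the 79 cytoplasmic ribosomal protein genes, which encode the protein part of the ribosome, was 33.9% ± 0.318 (SD, n = 3) at day 2 and 48.7% ± 0.878 (SD, n = 3) at day 5, with 42.8% at day 3 and 28.9% at day 0. The share in the 13 mitochondrially encoded mRNAs was 10.4% ± 0.127 (SD, n = 3) at day 2 and 13.1% ± 0.609 (SD, n = 3) at day 5. The 3 day 5 libraries lay above the 3 day 2 libraries in both, and the exact two-sided permutation test gave p = 0.1 for each, the smallest p that 3 against 3 allows. Left out of the total, these genes moved the counts: with the remaining features scaled back to the full total, 5695 were lower and 1411 higher, with a median of -0.42.

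Libraries agreed closely across features, with Pearson's r of 0.988 to 0.990 between the day 2 libraries and 0.985 to 0.991 between the day 5 libraries, a correlation over genes, which are not replicates. Replicate 3 of day 5 stood somewhat apart: among the 8328 features called lower it was the highest of the 3 day 5 libraries in 80.8%, and it had the smallest ribosomal protein share of the day 5 libraries, 47.7%. Without it 8609 features were lower and 502 higher.

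Genes of cell division showed the largest falls. Of the 62 features with a log2 change beyond -3, 31 were in the list of 62 mitosis, kinetochore and cytokinesis genes, and 23 were in no list. All 62 genes of that list were called lower, with a median log2 change of -3.01, and 59 of them after rescaling, with a median of -2.43. The remaining 3 were not called after rescaling, among them CKS2, which fell from a mean of 112 to 65.6 TPM as deposited, and KIF22, from 30.1 to 14.2 TPM.

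UBE2C, the ubiquitin-conjugating enzyme that works with the anaphase-promoting complex, read 109, 107 and 97.8 TPM at day 2 and 2.12, 2.67 and 1.79 TPM at day 5. Its log2 change was -5.06 ± 0.14 (SE, adjusted p = 1.3e-11 by limma), and -4.24 rescaled. NUSAP1, a spindle-binding protein, read 45.2, 41.9 and 41.6 TPM at day 2 and 0.444, 0.591 and 0.312 TPM at day 5. Every day 5 library of both genes lay far below every day 2 library. CDC20, the activator of the anaphase-promoting complex, went from 33.4, 34.2 and 31.6 TPM to 0.511, 0.648 and 0.825 TPM, a log2 change of -4.36 ± 0.12 (SE, adjusted p = 1.3e-11 by limma). PTTG1, the securin that holds back separase, went from 67.5, 66.7 and 61.8 TPM to 2.60, 2.56 and 1.73 TPM. The B-type cyclins that drive entry into mitosis, CCNB1 and CCNB2, changed by -4.32 and -4.30 on the log2 scale, and the spindle assembly factor TPX2 by -4.32. TROAP, which binds the spindle as well, fell from 54.1, 54.4 and 51 TPM to 1.40, 1.34 and 0.413 TPM, and the kinesin KIF2C by 4.13 on the log2 scale. The proliferation marker MKI67 read a mean of 12.9 TPM at day 2 and 0.203 TPM at day 5. AC087632.2, for which the annotation used gives no type, varied more between libraries, with 19.9, 44.8 and 37.4 TPM at day 2 and 0, 1.09 and 0.435 TPM at day 5.

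Genes for DNA synthesis fell with them. RRM2, the regulated subunit of ribonucleotide reductase, which makes deoxynucleotides, had the largest fall of any gene named here: 116, 149 and 122 TPM at day 2 against 1.65, 1.28 and 1.01 TPM at day 5, a log2 change of -5.82 ± 0.15 (SE, adjusted p = 1.3e-11 by limma) and -5.06 rescaled. TK1 and TYMS, which supply thymidine nucleotides, fell by 3.90 and 3.82. Of the 14 deoxynucleotide genes, these 3 included, 11 were lower and 0 higher, and after rescaling 5 were lower and 3 higher. The 3 were NME2, DUT and RRM2B, the p53-controlled counterpart of RRM2, which read a mean of 12.1 TPM at day 2 and 11.7 TPM at day 5. In the list of 48 replication licensing and fork genes 47 were lower and 1 higher, with a median of -1.57, and 38 and 1 after rescaling. TOP2A, the topoisomerase that untangles replicated DNA, went from 22.1, 20.2 and 21.4 TPM to 0.421, 0.372 and 0.787 TPM. The exception was RPA3, the smallest subunit of the single-strand binding protein, at 22.8, 17.0 and 16.2 TPM and then 26.3, 28.1 and 28.4 TPM, a log2 change of 0.56 that was not called when replicate 3 of day 2 was left out (0.47).

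Recombination, Fanconi and checkpoint genes were lower in 34 of 36, and in 24 after rescaling, where 1 was higher. The Fanconi gene FANCI went from 21.4, 21.5 and 22.1 TPM to 1.06, 2.23 and 1.69 TPM. Of the 24 genes for E2F factors, G1/S cyclins and their kinases 23 were lower and 0 higher, and 15 and 1 after rescaling, with cyclin A2, CCNA2, at 13.4, 11.1 and 11.6 TPM at day 2 and 0.486, 0.543 and 0.207 TPM at day 5. Cyclin D1, CCND1, fell from a mean of 32.8 to 5.79 TPM. Among 25 DNA methylation and Polycomb genes 21 were lower and 0 higher, and 7 and 2 after rescaling, with the Polycomb accessory gene PHF19 at 46.9, 56.5 and 42.9 TPM and then 6.24, 5.57 and 7.27 TPM, and the methyltransferase gene EZH2 at a mean of 16.4 and then 3.15 TPM.

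Genes that restrain the cycle did not show a matching rise on the deposited scale: of 29 tested CDK inhibitors and growth-restraint genes 16 were lower and 0 higher, and after rescaling 1 was lower and 8 higher. CDKN1A, which encodes p21, read a mean of 25.1 TPM at day 2 and 11.3 TPM at day 5, with a rescaled log2 change of -0.16 that was not called. CDKN1B, which encodes p27, held 31.0 and 32.1 TPM, a log2 change of 0.03 and of 1.0 rescaled, called higher only after rescaling. The 1 fall after rescaling was MDM2, the ubiquitin ligase of p53, which acts against p53 and does not itself restrain the cycle. It fell on both scales, from 156, 124 and 132 TPM to 30.6, 38.9 and 59.6 TPM.

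**Figure D2:**
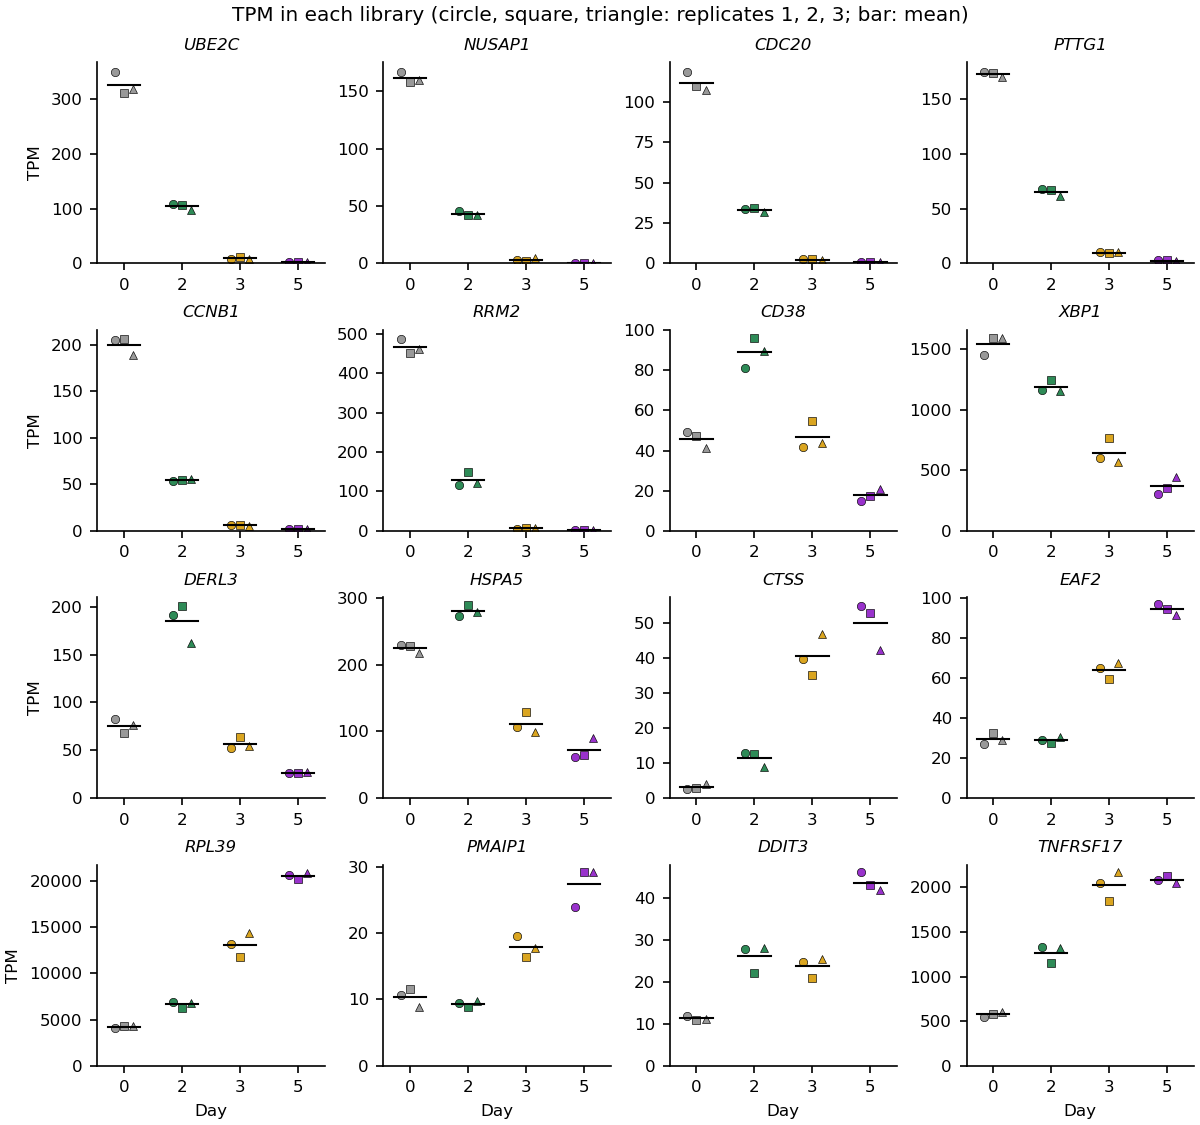
TPM of 16 genes in each of the 12 libraries by day, with circle, square and triangle for replicates 1, 2 and 3 and a bar for the mean of each group; each panel has its own axis from 0. The upper row and CCNB1 and RRM2 lie near 0 at day 5, while CTSS, EAF2, RPL39, PMAIP1, DDIT3 and TNFRSF17 are above their day 2 level in all 3 day 5 libraries.

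Ribosomal protein genes split. Of the 79, 24 were lower and 25 higher. Their log2 changes ran from -1.06 to 1.63 around a median of -0.08, and after rescaling 0 were lower and 55 higher. RPL39 rose from 6901, 6228 and 6849 TPM to 20669.7, 20166 and 20896 TPM, a log2 change of 1.63 ± 0.07 (SE, adjusted p = 5.6e-10 by limma), and RPS27 from a mean of 34695 TPM to 90338 TPM. RPL8 went the other way, with 1551, 1537 and 1398 TPM at day 2 and 615, 737 and 802 TPM at day 5, a log2 change of -1.06 that was -0.07 and not called after rescaling. In all 3 the day 2 and day 5 libraries did not overlap. The 25 higher genes had a median transcript GC content of 45.5% and the 24 lower genes of 54.2%, and over the 79 genes the log2 change had a Spearman correlation of -0.614 with GC content and of -0.339 with coding length, given as a description over genes that share all 6 libraries.

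The same leaning was seen over 4887 protein-coding genes with a mean of at least 10 TPM. In the lowest decile of genes by transcript GC content the median log2 change was -0.50, in decile 8, the lowest value, it was -1.19, and in the highest decile -1.05. In the decile with the shortest coding sequences it was -0.35 and in the decile with the longest -1.29. Spearman's rho over these genes was -0.272 with GC content and -0.397 with coding length. The 255 of them that were higher on both scales had a median coding length of 549 bases and a median GC content of 41.2%, the 987 that were lower on both scales 1593 bases and 51.4%, and all of them together 1134 bases and 48.3%. RNA quality values of the libraries were not used here, and the part of length and GC content in the changes of single genes was not tested; a fit of protein-coding features with both trends removed from each library, which also centres the libraries, called 1726 lower and 1473 higher, against 2087 and 1779 of the protein-coding features after rescaling alone. In that corrected fit 60 of 62 mitosis genes were lower, against 59 after rescaling. Other lists had fewer falls in it than after rescaling: 8 against 20 in ribosome biogenesis, 5 against 13 in glycolysis, 4 against 11 in heat shock proteins, 3 against 9 in sterol synthesis, 3 against 7 in amino acid synthesis, 2 against 5 in tRNA synthetases, 5 against 8 in ER-associated degradation, 4 against 7 in lysosome, 0 against 3 in NF-κB and 1 against 3 in plasma cell factors. Falls went up from 6 to 12 in the nuclear respiratory chain list, and rises went down from 15 to 9 in histones and up from 3 to 8 in the MHC class I list.

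**Figure D3:**
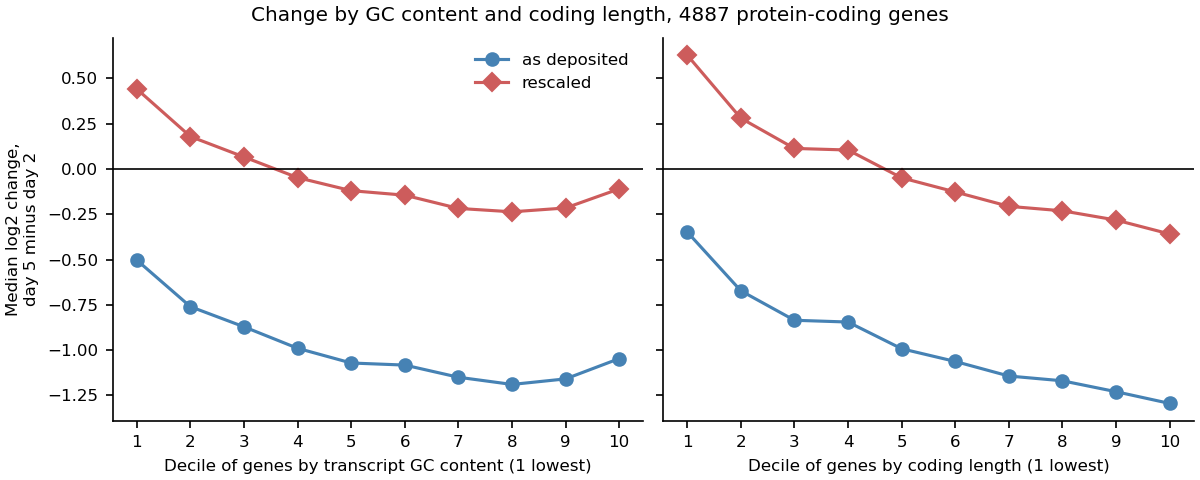
Median log2 change from day 2 to day 5 in deciles of 4887 protein-coding genes ordered by transcript GC content (left) or coding length (right), as deposited (circles) and rescaled (diamonds). The median falls from -0.35 in the shortest decile to -1.29 in the longest on the deposited scale.

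None of the 13 mitochondrially encoded mRNAs was lower and 2 were higher, MT-ND1 and MT-CO1, and all 13 were higher after rescaling. Without replicate 2 of day 2, 1 of them was called lower as deposited. MT-ND1, a subunit of respiratory complex I, read 3161, 3729 and 3621 TPM at day 2 and 6130.0, 5709 and 5123 TPM at day 5. The nuclear genes of the same machines were mixed: 36 of 62 respiratory chain genes were lower and 9 higher (6 and 24 after rescaling), 9 of 15 ATP synthase genes lower and 2 higher (1 and 6), and 47 of 77 mitochondrial ribosomal protein genes lower and 7 higher (5 and 29). COX7C, a small subunit of complex IV, rose from 1307, 1161 and 1255 TPM to 2742, 2696 and 2725 TPM. In ATP synthase the catalytic alpha subunit ATP5F1A fell from 529.5, 556 and 516 TPM to 161, 179.5 and 209 TPM and the small epsilon subunit ATP5F1E rose from 101, 92.6 and 95.4 TPM to 187, 171 and 174 TPM. Both directions were thus present within ATP synthase, and each of these 3 genes was called the same way on both scales.

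Genes that build and feed the translation machinery were mostly lower as deposited, where 69.8% of all features were lower. After rescaling, 18.1% of all features were lower and 19.0% higher. Of 44 initiation and elongation factors 39 were lower and 1 higher (11 and 5 after rescaling), and the release factor GSPT1 fell from 79.7, 86.3 and 81.7 TPM to 19.2, 17.7 and 28.9 TPM. The exception was EIF3E, a subunit of initiation factor eIF3, which rose from 868, 707 and 833 TPM to 1712, 1705 and 1800.4 TPM. Ribosome biogenesis and RNA polymerase I genes were lower in 35 of 42, and 20 were lower and 7 higher after rescaling, led by the nucleolar protein gene NOLC1 at 91.8, 98.6 and 96.0 TPM and then 16.9, 18.4 and 28.6 TPM. All 20 tRNA synthetase genes were lower, 5 of them after rescaling, and 21 of 26 genes for amino acid synthesis and transport, with 7 lower and 4 higher after rescaling. MYC, a transcription factor that drives growth genes, went from 109, 125 and 112 TPM to 32.6, 37.2 and 55.9 TPM, a log2 change of -1.47 ± 0.19 (SE, adjusted p = 9.3e-06 by limma). After rescaling it was -0.50 and fell just short of the size threshold, so it was not called there.

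Glycolysis and pentose phosphate genes were lower in 27 of 29 and sterol and fatty acid synthesis genes in 27 of 31, while rescaling left 13 lower and 2 higher in the first list and 9 lower and 3 higher in the second. The share of all features called lower was 69.8% as deposited and 18.1% after rescaling. GPI, the glycolytic phosphoglucose isomerase, read 157, 161 and 141 TPM and then 27.9, 32.0 and 49.9 TPM, and LDHA, lactate dehydrogenase A, fell from a mean of 948 TPM to 290.3 TPM. SQLE, which makes squalene epoxide for sterol synthesis, fell from 87.7, 86.8 and 83.7 TPM to 19.8, 21.2 and 23.0 TPM.

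Of the ER gene lists, those for chaperones, degradation, the translocon and the lipid-linked sugar chain had medians below that of all features, -0.83, and those for OST subunits and the UPR sensors lay above it. All 23 ER chaperone and folding genes were lower, with a median log2 change of -1.54, and 15 were lower and 0 higher after rescaling. With GC content and coding length corrected for, 10 were lower. Their median change from day 0 to day 2, in a comparison that shares the day 2 libraries, was 0.37. The promoter of SDF2L1, the list's largest fall, is shown for the CCAAT letters, in capitals, that are also the first part of the ER stress response element (CCAAT, any 9 bases, CCACG); the whole element was not found in this window.
SDF2L1 (chr22:21642052-21642351, plus strand): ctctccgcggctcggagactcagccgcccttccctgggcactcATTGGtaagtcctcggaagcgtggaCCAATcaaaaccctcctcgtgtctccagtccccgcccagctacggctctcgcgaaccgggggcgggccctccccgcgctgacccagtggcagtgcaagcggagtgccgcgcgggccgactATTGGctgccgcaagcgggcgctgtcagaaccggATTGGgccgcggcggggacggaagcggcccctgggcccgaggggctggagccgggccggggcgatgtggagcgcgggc
CCAAT was in 81.8% of the 22 chaperone promoters at hand and the whole element in 27.3%, against 37.9% and 0.157% of all tested promoters. SDF2L1, a luminal protein of the chaperone network, read 101, 107 and 101 TPM at day 2 and 18.2, 24.3 and 27.4 TPM at day 5. CALR, the lectin chaperone calreticulin, read 1034, 1075 and 1018 TPM and then 201, 224 and 335 TPM. HSPA5, the HSP70 of the ER known as BiP, read 273, 289 and 278 TPM at day 2 and 61.4, 64.1 and 89.6 TPM at day 5.

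Glycoprotein quality control and ER-associated degradation genes were lower in 28 of 29, with a median of -1.22, and in 8 after rescaling, where 0 were higher. DERL3, a channel protein of that degradation pathway, read 191, 201 and 162 TPM at day 2 and 26.6, 26.4 and 27.5 TPM at day 5, a log2 change of -2.73 ± 0.11 (SE, adjusted p = 2.6e-10 by limma) and -1.76 rescaled. Of 44 translocon and early secretory genes 37 were lower and 0 higher (17 and 7 after rescaling), with the COPII coat gene SEC24D at 37.7, 36.7 and 34.7 TPM and then 5.46, 5.78 and 8.58 TPM. Without replicate 1 or 3 of day 2, or replicate 2 of day 5, 1 of the 44 was called higher as deposited. XBP1, the transcription factor whose mRNA is spliced by the stress sensor IRE1, fell from 1160.4, 1249.9 and 1158 TPM to 301, 350.0 and 448 TPM.

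The sensors of the unfolded protein response (UPR) and its ATF4-CHOP branch did not move as 1 block. Of 17 tested genes 13 were lower and 1 higher, while rescaling left 2 lower and 4 higher. The exception was DDIT3, which encodes the stress-induced factor CHOP, at 27.9, 22.2 and 28.1 TPM at day 2 and 46.1, 43.1 and 41.7 TPM at day 5, a log2 change of 0.73 ± 0.11 (SE, adjusted p = 4.1e-05 by limma) and 1.70 rescaled. Its mean was 11.3 TPM at day 0 and 23.8 TPM at day 3, so the day 5 level was the highest of the 4 groups. ATF4, the factor upstream of DDIT3, had a log2 change of -0.31 as deposited, not called, and of 0.68 rescaled, called higher.

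Among the 12 OST subunit genes, the target of NGI-1, 8 were lower and 1 higher, with a median of -0.64, and 3 and 4 after rescaling. The catalytic subunit STT3A went from 349, 365 and 351 TPM to 99.3, 105 and 142 TPM and the shared subunit DDOST from 553, 567 and 517 TPM to 157, 187 and 221 TPM, and RPN2, ribophorin II, had the largest fall, with 435, 489 and 441 TPM at day 2 and 108, 118 and 156 TPM at day 5. All 3 fell on both scales. The other catalytic subunit, STT3B, changed direction with the scale, with a log2 change of -0.72 as deposited and of 0.27, not called, after rescaling. The shared subunit DAD1 read 369.8, 347 and 366 TPM at day 2 and 406, 362 and 361 TPM at day 5, groups that overlap, with a log2 change of 0.06 as deposited and of 1.05 rescaled, where it was called higher. The single gene called higher, TUSC3, was at a mean of 0.440 TPM and then 1.27 TPM and did not reach the stricter minimum of 5 TPM. In the 34 genes that build the lipid-linked sugar chain 26 were lower and 0 higher, and 12 and 8 after rescaling, and GMPPB, a subunit of the enzyme that makes GDP-mannose, went from 15.7, 16.6 and 14.5 TPM to 2.75, 3.39 and 4.47 TPM.

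Interferon-stimulated genes divided. Their median log2 change from day 0 to day 2 was 1.5, in a comparison that shares the day 2 libraries, and from day 2 to day 5 it was -0.84, close to the median of all features. Of 44 tested genes 27 were lower and 5 higher, and 5 and 13 after rescaling. On both scales IFI30, a lysosomal thiol reductase, fell from 100.4, 106 and 99.4 TPM to 18.6, 22.7 and 26.9 TPM, and the antiviral GTPases MX1 and MX2 fell by 1.73 and 1.99 on the log2 scale. IFIT1, which binds foreign RNA caps, rose from 2.22, 3.38 and 3.85 TPM to 10.4, 10.8 and 9.77 TPM, and IFI44, a gene of less certain role, from 4.30, 3.81 and 8.11 TPM to 15.8, 14.0 and 14.7 TPM. IFI44L and IFIT2 rose too but stayed under 5 TPM, and the fifth was IFIT5. The promoters of the 2 genes with the largest rises of this list are shown for their interferon-stimulated response element letters, GAAA, any 2 bases and GAAA on either strand, in capitals.
IFIT1 (chr10:89392373-89392672, plus strand): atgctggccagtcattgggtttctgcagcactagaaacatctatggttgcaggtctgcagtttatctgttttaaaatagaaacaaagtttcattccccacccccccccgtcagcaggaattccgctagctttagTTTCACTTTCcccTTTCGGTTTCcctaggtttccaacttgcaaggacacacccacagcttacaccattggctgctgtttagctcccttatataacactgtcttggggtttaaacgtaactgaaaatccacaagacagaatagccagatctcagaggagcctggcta
IFI44 (chr1:78649539-78649838, plus strand): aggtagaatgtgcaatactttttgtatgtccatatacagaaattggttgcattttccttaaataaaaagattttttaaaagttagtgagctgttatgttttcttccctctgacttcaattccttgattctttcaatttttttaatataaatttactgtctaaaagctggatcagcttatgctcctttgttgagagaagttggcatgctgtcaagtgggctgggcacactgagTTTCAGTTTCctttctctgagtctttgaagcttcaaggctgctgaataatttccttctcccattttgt
These letters were in 61.8% of the 34 promoters of the list, which holds genes known for this element. They were in 8.65% of the 312 promoters of features higher on both scales, in 2.36% of the 1694 of features lower on both scales and in 2.83% of the 8941 tested. The median GC content of these promoter sets was 60.3%, 66% and 65.3% in that order. Its part in the shares of these AT-rich letters was not tested.

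Of the MHC class I, constitutive proteasome and immunoproteasome lists, only the constitutive proteasome had shares of falls near those of all features on both scales, 69.8% as deposited and 18.1% rescaled. The MHC class I list was near as deposited only, and the small immunoproteasome list lay above both shares. B2M, the light chain of MHC class I, rose from 4005, 3798 and 4213 TPM to 8106, 7938 and 7869.8 TPM, whereas of the 16 tested genes of that list 11 were lower and 1 higher, and 5 and 3 after rescaling. Constitutive proteasome genes were lower in 32 of 42 and higher in 5, and 7 and 10 after rescaling. In the regulatory particle the scaffold gene PSMD2 went from 80.8, 78.7 and 65.3 TPM to 15.3, 19.0 and 28.4 TPM and the ATPase gene PSMC6 from 96.1, 86.1 and 100.2 TPM to 192, 171 and 187 TPM, each called on both scales. PSMB5, the subunit that bortezomib binds, had a log2 change of -0.79 as deposited, called lower, and of 0.18 rescaled, not called. All 7 immunoproteasome and PA28 genes were lower, 2 of them after rescaling, led by PSME3 at 63.4, 57.4 and 62.9 TPM and then 15.9, 17.2 and 22.1 TPM. DDI2, the protease that activates the proteasome regulator NFE2L1, read 6.60, 6.57 and 6.48 TPM and then 1.56, 2.05 and 3.67 TPM, and was not called after rescaling (-0.42). KEAP1, the adaptor that marks NRF2 for breakdown, and XPO1, the nuclear export receptor, had log2 changes of -1.10 and -0.83 as deposited, called lower, and of -0.14 and 0.13 rescaled, not called.

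Lysosomal, autophagy and heat shock counts stand against 69.8% of all features lower as deposited, and 18.1% lower and 19.0% higher after rescaling. Of 34 lysosomal genes 32 were lower and 1 higher, and rescaling left 7 and 2. The galactosidase gene GLA went from 7.94, 12 and 8.53 TPM to 1.93, 2.32 and 2.09 TPM. The exception, the protease gene CTSS, was among the largest rises of all features, at 12.8, 12.5 and 8.98 TPM at day 2 and 54.6, 52.7 and 42.3 TPM at day 5, a log2 change of 2.04 ± 0.17 (SE, adjusted p = 1.7e-07 by limma). Autophagy genes were lower in 21 of 33 and higher in 0, and 4 and 11 after rescaling, with the receptor gene CALCOCO2 at 61.2, 69.7 and 53.2 TPM and then 16.8, 17.2 and 23.2 TPM. Heat shock genes were lower in 23 of 27 and higher in 2, and 11 and 4 after rescaling: HSPA1B, a stress-induced HSP70 with a near-identical copy whose reads can be split between them, fell from 29.2, 30.9 and 24.3 TPM to 5.14, 5.79 and 10.1 TPM, and the mitochondrial co-chaperonin gene HSPE1 rose from 899.8, 813 and 974 TPM to 1387, 1386 and 1547 TPM.

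In the BCL2 family, whose members promote or block mitochondrial cell death, 7 of 15 were lower and 2 higher, and 1 and 6 after rescaling. Without replicate 3 of day 2, 1 was higher. PMAIP1, the death-promoting NOXA, rose from 9.41, 8.88 and 9.75 TPM to 23.8, 29.2 and 29.2 TPM, a log2 change of 1.45 ± 0.12 (SE, adjusted p = 2.1e-07 by limma). MCL1, the survival protein NOXA binds, fell from a mean of 496 TPM to 204 TPM as deposited, and was not called after rescaling (-0.31). The pore former BAK1 fell on both scales, from 46.8, 44.8 and 43 TPM to 12.1, 15.6 and 16.7 TPM. In the TRAIL, receptor and caspase list 15 of 24 were lower and 2 higher, and 1 and 6 after rescaling, with the inflammatory caspase gene CASP4 at 9.79, 9.65 and 10.3 TPM and then 16, 15.8 and 14.0 TPM. TNFSF10, which encodes TRAIL itself, read 4.66, 3.60 and 4.13 TPM at day 2 and 5.41, 5.21 and 5.70 TPM at day 5; its log2 change of 0.33 was below the size threshold, and it was called higher after rescaling (1.17).

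Plasma cell lists had falls in most members as deposited, where 69.8% of all features were lower. After rescaling the share was near the 18.1% of all features in the surface and factor lists. Of 10 tested immunoglobulin chain and assembly genes 7 were lower and 0 higher, and 3 and 3 after rescaling. Of 28 myeloma surface and adhesion genes 26 were lower and 1 higher, and 6 and 2 after rescaling. CD38, the ectoenzyme that daratumumab binds, went from 80.9, 96.2 and 89.9 TPM to 14.9, 17.1 and 20.8 TPM, a log2 change of -2.28 ± 0.13 (SE, adjusted p = 1.1e-08 by limma) and -1.32 rescaled, and the homing integrin gene ITGB7 from 1424, 1529 and 1349.7 TPM to 259, 292 and 366 TPM. TNFRSF17, which encodes the therapy target BCMA, rose instead, from 1328, 1158 and 1320.4 TPM to 2083, 2129 and 2050.4 TPM, on both scales. Of 18 plasma cell transcription factor and cereblon genes 14 were lower and 1 higher (3 and 2 after rescaling). The 1 was CRBN, which encodes cereblon, the target of lenalidomide, at 24.1, 25.7 and 32.2 TPM and then 45.7, 39.8 and 37.7 TPM, a log2 change of 0.57 that fell to 0.49 and was not called without replicate 1 of day 2, and to 0.50 without replicate 1 of day 5. The kappa chain went down, with IGKC at 23701, 27555 and 24511 TPM at day 2 and 7071, 8239 and 10131 TPM at day 5 and IGKV3-15 at a mean of 26933 and then 8504 TPM, while JCHAIN, the joining chain of polymeric antibodies, held 16916 TPM and 17339 TPM on average, not called as deposited and higher after rescaling. MZB1, a chaperone of antibody assembly, went from 459, 444 and 416 TPM to 114, 118 and 133 TPM. NF-κB genes were lower in 19 of 25 and higher in 0 (3 and 4 after rescaling), and AP-1 and immediate-early genes lower in 21 of 24 and higher in 1 (6 and 3). The subunit gene RELA fell from 28, 31.3 and 27.5 TPM to 7.34, 8.68 and 12.4 TPM, and DUSP5, a phosphatase that turns off ERK, from 541, 564 and 532 TPM to 122, 140.3 and 188 TPM.

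RNAs without a protein product or a usual poly(A) tail were among the rises. Of 304 tested long intergenic noncoding RNAs 85 were lower and 43 higher, and 16 and 132 after rescaling, set against 7880 lower and 354 higher, and 2087 and 1779 after rescaling, of 10613 protein-coding features. Of the 23 snoRNA host and abundant long noncoding RNAs 8 were lower and 6 higher, and 0 and 15 after rescaling. MALAT1, a nuclear RNA of splicing speckles, rose from 157, 120.4 and 140.0 TPM to 420.4, 447 and 620.4 TPM, and SNHG9 went from 37.9, 34.8 and 38.7 TPM to 14.6, 16.3 and 10.3 TPM, called lower as deposited only. Small structured RNAs were lower in 2 of 11 and higher in 6, and 0 and 8 after rescaling. Without replicate 1 or 3 of either day, 0 were lower. RNU1-1, a copy of the U1 spliceosomal RNA, read 5.49, 15.9 and 5.25 TPM at day 2 and 135, 70.7 and 81.6 TPM at day 5, RNU2-2P, a copy of U2, 15.4, 14.5 and 0 TPM at day 2 and 64.1, 36.9 and 27.3 TPM at day 5, and SCARNA7, a guide RNA of Cajal bodies, 6.70, 3.55 and 4.07 TPM at day 2 and 36.0, 35.6 and 41.3 TPM at day 5. SNORD3D and SNORD3A, copies of the U3 RNA that processes ribosomal RNA, read 1.95, 0 and 11.3 TPM at day 2 and 79.5, 23.2 and 13.3 TPM at day 5, and 17.4, 10.7 and 8.80 TPM at day 2 and 60.1, 44.1 and 34.8 TPM at day 5. The log2 change of RNU2-2P was 2.70 and became 1.37 without replicate 3 of day 2, its library at 0. RMRP was called lower only as deposited, and in 4 of the 6 fits without 1 library it was not called. These RNAs come in near-identical copies between which reads can be split, and several were at 0 in 1 library of day 2, so single values are uncertain.

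Replication-dependent histone genes, whose mRNAs normally lack a poly(A) tail, had 50 members in the table, of which 22 passed the filter. The same limits of the filter and of near-identical copies hold for them. Of the 22, 7 were higher and 1 lower, and 15 and 0 after rescaling. Without replicate 1 of day 2, 2 were lower. H2AC6 read 43.4, 38.6 and 43.3 TPM at day 2 and 116, 123 and 130.3 TPM at day 5 with no overlap. H4C11 read 0, 46.8 and 29.1 TPM at day 2 and 119, 127 and 123 TPM at day 5, and its log2 change of 3.46 became 1.71 without replicate 1 of day 2. H2AC18, at 0, 0 and 8.53 TPM at day 2 and 66.4, 43.9 and 26.5 TPM at day 5, has a near-identical copy in H2AC19 and is uncertain. H2AC20 was lower as deposited, at 8.40, 8.85 and 6.90 TPM and then 2.99, 3.78 and 3.78 TPM, and not after rescaling (-0.17). Of splicing factor genes 39 of 45 were lower and 3 higher, and 14 and 6 after rescaling, with HNRNPA1 at 1397, 1529 and 1456 TPM and then 285, 321 and 464 TPM, and the SR protein kinase gene CLK1 at 44.6, 37.1 and 50.4 TPM and then 109, 109 and 129 TPM. Iron and antioxidant genes were lower in 20 of 26 and higher in 1, thioredoxin, TXN, at 445, 404 and 428 TPM and then 867, 868 and 844 TPM, and 4 and 6 after rescaling, with the iron sensor gene IREB2 at 20.3, 22.7 and 21.8 TPM and then 4.93, 6.17 and 8.25 TPM.

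On the scale as deposited, most of the change was in place by day 3. The counts, shares and steps given for day 3 are on that scale only. The rescaling factors stepped down with time as well, with 0.808, 0.891 and 0.768 at day 3, between those of day 2 and day 5. The shares below therefore include the common shift that rescaling removes. Day 3 against day 2 called 6624 features lower (55.5%) and 384 higher (3.22%), and day 5 against day 3 called 1565 lower (13.1%) and 80 higher (0.67%); both comparisons share libraries with the 1 described here. In the median feature called lower at day 5, 70.2% of the log2 fall from day 2 had been reached at day 3, with quartiles of 59.0% and 81.7%, and in the median feature called higher 67.9% of the rise. For 241 features with a log2 change beyond -2 the median share was 75.9%. In the mitosis list the median log2 step was -2.39 up to day 3 and -0.54 after it, and 34 of the 62 were called lower again from day 3 to day 5. In the ribosome biogenesis list the steps were -0.79 and -0.56, and in the interferon list -0.22 and -0.46.

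**Figure D4:**
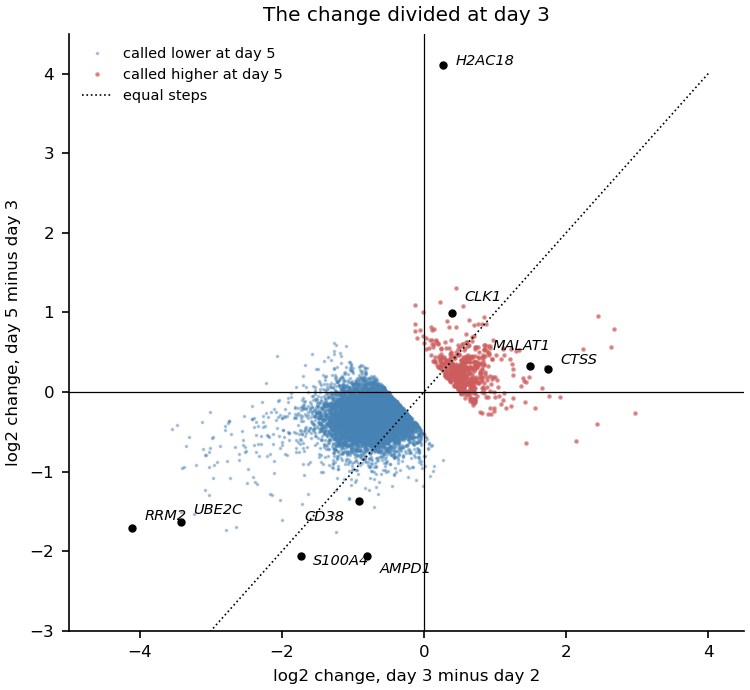
Log2 change as deposited from day 2 to day 3 (horizontal) and from day 3 to day 5 (vertical) of each feature called lower (blue) or higher (red) between day 2 and day 5. The dotted line marks equal steps and 9 genes are named in black. Most blue points lie above the dotted line, with a median of 70.2% of the fall reached at day 3, while AMPD1 and S100A4 lie below it.

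As deposited, less than 50% of the change was reached at day 3 in 1116 features called lower (13.4%) and 99 called higher (19.1%). Of these, 45 falls and 16 rises were also called in the same direction from day 3 to day 5 and on both scales from day 2 to day 5, without overlap and at a mean of at least 10 TPM. AMPD1, the AMP deaminase better known from muscle, read a mean of 388 TPM at day 2, 225 TPM at day 3 and 53 TPM at day 5, and its 3 day 5 libraries read 47.1, 52.1 and 59.7 TPM. S100A4, a calcium-binding protein, went from 43.2, 35.0 and 34.8 TPM to 0.854, 1.82 and 3.01 TPM, with a mean of 10.6 TPM at day 3. CD38 and the chemokine receptor gene CCR1 were in the same set, CCR1 with means of 27.7 TPM, 15.3 TPM and 6.16 TPM. Among the late rises CLK1 had means of 44 TPM, 57.5 TPM and 116 TPM, and RPS29 of 6463 TPM, 9472 TPM and 14315 TPM. As deposited, DDIT3 was lower at day 3 than at day 2 in its mean and rose only after it. That order was not looked at after rescaling, where the day 3 factors lie below those of day 2.

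Of the protein-coding genes with the largest rises on both scales, several were in no list. DMAC1, an assembly factor of respiratory complex I, read 9.08, 9.11 and 9.39 TPM at day 2 and 36.2, 31.0 and 36.9 TPM at day 5, a log2 change of 1.80 ± 0.15 (SE, adjusted p = 1.9e-07 by limma). EAF2, a partner of the elongation factor ELL, read 29.1, 27.7 and 30.6 TPM at day 2 and 97.1, 94.7 and 91.8 TPM at day 5, and AIM2, a sensor of cytosolic DNA, 18.8, 16.7 and 19.97 TPM at day 2 and 56.5, 55.7 and 54.2 TPM at day 5. For all 3 every day 5 library lay above every day 2 library. C1orf53 read 8.01, 7.05 and 6.39 TPM at day 2 and 24.3, 27.2 and 26.0 TPM at day 5, IFTAP, a protein of cilium transport, 23.5, 18.5 and 24.7 TPM at day 2 and 64.1, 71.7 and 69.1 TPM at day 5, and CRYZ, a quinone reductase, 13.8, 13.8 and 16.1 TPM at day 2 and 46.4, 43.7 and 38.7 TPM at day 5. As deposited, rises were smaller than falls. Of the called features, 9 had a log2 change over 2 and 149 over 1, against 241 beyond -2 and 4607 beyond -1. These counts include the common shift that rescaling removes: the middle feature stood at -0.83 as deposited and at -0.073 rescaled. After rescaling 2265 features were higher and 2159 lower, and counts at these size limits are not given on that scale. The difference in size is therefore stated for the deposited scale only.

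Of the 23 features with a log2 change beyond -3 that were in no list, several are also known for cell division, such as PRR11 and CDCA5. Others, chosen here after their values were seen, include APOBEC3B, a DNA cytidine deaminase, with means of 34.1 TPM at day 2 and 1.83 TPM at day 5, and BGLAP, the bone protein osteocalcin, with 55.4 and 3.63 TPM. MLC1, a membrane protein best known from astrocytes, went from a mean of 33.0 to 2.11 TPM, the integrin gene ITGA8 from 66.7 to 6.91 TPM, and EEF1A2, an elongation factor isoform, from 10.2 to 0.373 TPM.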

How the data were processed

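RNA-seq libraries of the cells labelled MM1S were compared between 5 and 2 days of NGI-1, with 3 libraries each. The authors deposited log2 values of TPM plus 1 for 59276 features, listed by symbol. The submitters' processing notes name Trimmomatic, FastQC, STAR, Salmon and hg38, without versions. Whether reads were counted by strand is not given in the sources used here, so a gene and its antisense partner cannot be told apart. The labels state over 60 M paired-end reads per library. TPM keeps no counts, so counting error is unknown and precision was read from the spread between libraries. Features were kept that reached 1 TPM in 3 or more of the 12 libraries, and all 12 were fitted in one model with 1 mean per group (limma 3.58.1 with a mean-variance trend, R 4.3.3). P-values are two-sided. Fold changes are on the log2(TPM + 1) scale, which understates the change of low genes, and features were called at a Benjamini-Hochberg adjusted p under 0.05 and a log2 change over 0.5 in size. Rescaling divided each library by 1 factor, chosen so that the median of its log2 ratios to the average library became 0 over the 5433 features with a mean of at least 10 TPM. The 6 libraries show no batch label.

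The fit was tested on simulated data of the day 5 against day 2 comparison with 11939 features, where 84 of 100 genes changed by a log2 of 1, 98 of 100 changed by 2 and 4 unchanged genes were called. Only 200 features were changed there, equally up and down, with independent noise and no shift of the median. The simulation therefore does not cover errors that come from the scaling of the libraries. Genes are named by a rule: the 10 largest falls and rises called on both scales with a mean of at least 10 TPM and no overlap, for all features and for protein-coding genes, the largest called fall and rise of each gene list at 5 TPM or more, and the genes the study names. Not every gene the rule names is reported here. Others were chosen after their values were seen, as illustrations of their list. The comparison, the lists and the tests were chosen with earlier results of these data known, and the lists come from general knowledge. Biotypes, GC content and coding lengths came from GENCODE release 29 on GRCh38 and matched 11839 tested features by symbol, older symbols included. Promoters came from RefSeq on GRCh38.p14. Alternatives were other filters, a pseudocount of 0.1, a log2 threshold of 1, rescaling, leaving out abundant genes or each library in turn, fits of fewer groups or without the trend and, added after seeing the data, a correction for GC content and coding length. Figures were drawn with matplotlib 3.10.9.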

Additional observations from a re-analysis of the deposited data

How the results depend on the processing

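The balance of falls and rises depended on how the libraries were scaled or centred. After rescaling 2159 features were lower and 2265 higher, around a median log2 change of -0.073, and with a correction for GC content and coding length, chosen after seeing the data and limited to protein-coding features, 1726 were lower and 1473 higher, with a median of -0.084. Without ribosomal protein and mitochondrial genes 1411 were higher and the median was -0.42, and without the 20 most abundant features 821 were higher and it was -0.67. A log2 threshold of 1 left 4607 lower and 149 higher, by its construction. The median was -0.072 with no filter on low values, which adds features at or near 0, -1.0 with a TPM of at least 5 and -1.05 with a pseudocount of 0.1. Leaving out each library in turn gave 7920 to 8609 lower, 465 to 537 higher and a median of -0.917 to -0.764. The differences in the ribosomal protein and mitochondrial shares moved by less than the spread between replicates under each alternative tried.

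Of 1678 values of the 94 named genes under these alternatives 1618 kept their direction and side of the threshold, 46 lost the call, 7 gained it and 7 reversed. Most of these genes were picked because they were called, many of them on both scales and without overlap. Their stability was thus favoured in advance and is not separate support. The 7 reversals were all in STT3B, XPO1, KEAP1 and PSMB5, which are there because the study names them. Rescaled, STT3B was at 0.27, XPO1 at 0.13 and PSMB5 at 0.18, and corrected for GC content and coding length STT3B was at 0.37, XPO1 at 0.086, KEAP1 at 0.28 and PSMB5 at 0.19. No paired analysis was possible because the labels of the libraries give no replicate number that marks a shared culture or day, and the numbers used here only name libraries in accession order. TPM gives no depth per gene, so a floor for values near 0 could not be set.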

Other observations

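The gene lists leave out pseudogenes and antisense transcripts. Of 181 tested processed pseudogenes 55 were lower and 37 higher between day 2 and day 5, and 9 and 77 after rescaling. Of 297 antisense transcripts 95 were lower and 32 higher, and 17 and 114 after rescaling. Reads of processed pseudogenes can come from their parent genes, and the strand of the counting is not known here, so these counts describe the table and not separate transcripts.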
